A study of Mus musculus with 4 samples.

Results

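Antioxidant enzymes and the genes around the transcription factor Nrf2 were followed as a set of 10 genes in the liver and spleen of mice on 2 diets. The members were Nfe2l2, which encodes Nrf2, Nqo1, Gclc, Gclm, Txnrd1, Srxn1, Cat, Sod1, Sod2 and Gpx1. They were found by gene name among 27962 gene names of a whole mouse genome array, and for each gene the brightest of its probes was used. The animals were male C57BL/6J mice, described as 13 weeks old. The low-NP diet was a purified diet with 0.03% nucleic acids, and the NP diet was the same diet with 1.2% nucleoprotein added, at 0.5% nucleic acids. The NP diet was given for 4 weeks, and the labels name no difference between the groups other than diet. RNA was pooled per diet and tissue, from a number of mice that is not stated. Each tissue was hybridised on 2 two-colour arrays, with Cy5 marking the NP pool on array 1 and Cy3 marking it on array 2. Both arrays were taken to carry the same pools with the dyes exchanged, which leaves 1 replicate for each diet and tissue and allows no test of diet. Sample numbers in the labels change together with the dye, so separate pools per array remain possible.

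Nrf2 is held in the cytoplasm by KEAP1, which passes it to a CUL3 ubiquitin ligase. When KEAP1 is modified by oxidants or electrophiles, Nrf2 reaches the nucleus, pairs with a small Maf protein and binds the antioxidant response element of its target genes. The targets make glutathione, regenerate thioredoxin and peroxiredoxin, and reduce quinones. Superoxide dismutases, catalase and glutathione peroxidase, which remove superoxide and hydrogen peroxide directly, work beside them and are abundant in hepatocytes.

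The core of the antioxidant response element, TGACNNNGC, was sought on both strands of the 250 bases before each annotated start in RefSeq promoter sequences of build GRCm38.p6. Of the 10 genes, 9 matched a promoter entry, all but Gclc, and 4 of these 9 held the core, against 11.5% of all 27025 genes with an entry. Over single promoters the shares were 36.4% of 11 and 10.2% of 32851, since Txnrd1 has several starts. Its core lay in the promoter at chr10:82858956-82859255 and in none of its others. The windows with a match are shown because this core is the sequence that Nrf2 recognises, and capitals mark the match, read on the strand of the gene. In Gclm, Txnrd1 and Sod1 the core runs on the opposite strand. The windows lie at chr2:75704875-75704913 (minus strand), chr3:122245403-122245451, chr10:82859094-82859142 and chr16:90220686-90220734, the last 3 on the plus strand.
Nfe2l2: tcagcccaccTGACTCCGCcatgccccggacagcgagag
Gclm: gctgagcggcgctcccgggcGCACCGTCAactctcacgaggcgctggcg
Txnrd1: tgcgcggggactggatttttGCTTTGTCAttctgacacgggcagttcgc
Sod1: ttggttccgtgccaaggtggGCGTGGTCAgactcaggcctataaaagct
The matches begin 240, 134, 92 and 56 bases before the start, in that order of genes. A match is a description of letters and was not tested as a binding site.

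Before the results, the pools were checked against markers of their tissues. The hepatocyte list, 19 genes found of 20, had a median normalized log2 level of 17.2 in the liver of the NP group. In spleen the median was 9.96 with NP and 16.1 with low NP. In low-NP spleen these genes reached a median of 42.7% of their NP liver level, against 0.928% in NP spleen. Over the genes the share ran from 16.7% to 220% in low-NP spleen and from 0.199% to 6.70% in NP spleen. The summed level of the list was 16.3 and 14.6 on the 2 arrays in NP spleen and 21.4 and 21.0 in low-NP spleen, on the log2 scale. All 19 were at least 1.5-fold lower in NP than in low-NP spleen on both arrays, and Cps1 and Otc were each well above background in 3 of 4 spleen channels, the other 17 in all 4. Alb was saturated in 2 of 4 liver channels and 1 of 4 spleen channels, and Ambp in 1 of 4 liver channels, which limits the summed levels. The lymphocyte list of 20 genes reached a median of 21.2% of its NP spleen level in low-NP liver and 4.28% in NP liver, and 16 of its 20 genes were lower in NP liver, where 2 were not well above background. Its summed level was 13.7 and 12.9 in NP liver and 16.5 and 16.7 in low-NP liver. Genes of the exocrine pancreas list were also lower in the NP pools, 15 of 16 in liver and 16 of 17 in spleen. The exception in spleen was Ela2, at 0.12 ± 0.09, which was not measured in liver. Its probe lies at chr10:79668034-79668093, the locus of neutrophil elastase, so it is not a pancreas marker. Cela1, Cela2a and Cela3b, named Ela1, Ela2a and Ela3 in the files, were lower in both tissues. Macrophage and granulocyte genes were lower in NP liver for 6 of 14 measured, with none higher. In NP spleen 1 of these 14 was lower, at a log2 ratio of -2.85, and none higher. Erythroid genes were higher in NP spleen for 3 of 12, and 12 of 12 lay above 0 by the mean. By the same rule, 3.63% of all measured genes were lower and 0.0702% higher in NP liver. In NP spleen the shares were 6.33% and 0.0431%. The low-NP spleen thus held markers of liver, and the low-NP liver markers of spleen, per the levels on both arrays. Whether RNA of the other tissue entered the low-NP pools was not tested, and this limits what every ratio between the diets can be taken to measure. In RNA from whole tissue, fewer cells of a type and less RNA per cell cannot be told apart.

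**Figure D1:**
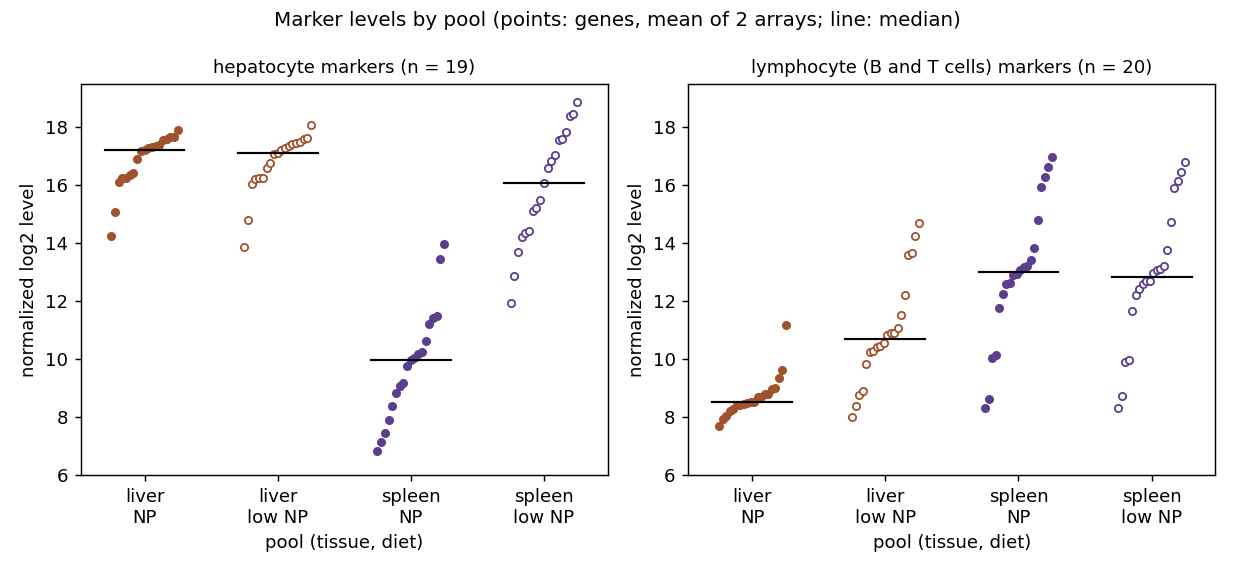
Normalized log2 levels of 19 hepatocyte markers (left) and 20 lymphocyte markers (right) in the 4 pools. Points are genes, each the mean of 2 arrays, and lines are medians. Hepatocyte markers had a median of 9.96 in NP spleen and 16.1 in low-NP spleen.

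The diets were compared as the log2 ratio of the NP pool to the low-NP pool, averaged over both arrays of a tissue. After ± stands how far either array lay from their mean. The deposited value table runs the other way, low NP divided by NP. A gene was measured when each array had its probe well above background in 1 dye or more, and called when both arrays passed 1.5-fold (0.585 on the log2 scale) in the same direction. All 10 genes were measured in both tissues, well above background in all 80 combinations of gene, array and dye, and 0 were saturated.

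The first question was whether the antioxidant genes differed between the diets in liver. None of the 10 was called in either direction, against 0.0702% of 17100 measured genes called higher and 3.63% called lower. Their median was 0.11, beside 0.00 over all measured genes (0.0007865 before rounding), and their means ran from -0.17 to 0.33. In 5 genes both arrays were above 0, namely Nfe2l2, Nqo1, Gclm, Txnrd1 and Srxn1. By the mean, 7 of the 10 lay above 0, against 50.2% of all measured genes. How many of all genes had both arrays above 0 was not counted.

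Nfe2l2 lay at 0.47 and 0.13 on the 2 liver arrays, 0.30 ± 0.17. Its 3 other probes gave 0.17, 0.09 and -0.12, so the probes disagreed on the sign. The probes at 0.09 and -0.12 were dimmer and carry other accessions. Their mean log2 intensities were 8.54 and 9.68, against 12.98 for the probe used. The Nfe2l2 probe used lies at chr2:75519430-75519489 on the minus strand, by the array files, which use build mm7. Of the Nrf2 targets, Txnrd1, the cytosolic thioredoxin reductase, lay at 0.54 and 0.13 (0.33 ± 0.21), the highest mean of the 10 in liver. Nqo1, a quinone reductase, lay at 0.22 and 0.26 (0.24 ± 0.02), with arrays closer together. Both arrays were above 0 for these target genes and none reached 1.5-fold. Gclm, the modifier subunit of glutamate-cysteine ligase, the rate-limiting step of glutathione synthesis, lay at 0.10 and 0.26 (0.18 ± 0.08). Its catalytic partner Gclc lay at 0.15 and -0.07 (0.04 ± 0.11), on both sides of 0. Srxn1, which restores overoxidised peroxiredoxin, lay at 0.12 and 0.22 (0.17 ± 0.05), and its other 2 probes gave 0.18 and 0.21.

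Among the enzymes that act on superoxide and peroxide, the arrays of the liver did not give a common direction for most. Cat, the peroxisomal enzyme that breaks down hydrogen peroxide, lay at 0.14 and -0.12 (0.01 ± 0.13). Sod2, the mitochondrial superoxide dismutase, lay at -0.03 and -0.08 (-0.05 ± 0.03). Both arrays of both genes lay well inside the calling threshold. Sod1, the cytosolic superoxide dismutase, lay at 0.66 and -0.95 (-0.15 ± 0.81), past 1.5-fold in opposite directions. Its 2 other, dimmer probes gave 0.11 and 0.26, with both arrays above 0. Gpx1, the main cytosolic glutathione peroxidase, lay at 0.30 and -0.64 (-0.17 ± 0.47). Sod1 and Gpx1 had the brightest probes of the 10, and their liver ratios were above 0 on array 1 and below 0 on array 2. Dye, array and any separate pool change together here and cannot be told apart. Among the 45 measured genes with a mean intensity at least that of Gpx1, all 45 had a higher ratio on array 1 than on array 2 in liver, and 8 passed 1.5-fold in opposite directions. Below that intensity 65.6% of 17055 genes had the higher ratio on array 1, and 0.193% passed 1.5-fold in opposite directions.

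**Figure D2:**
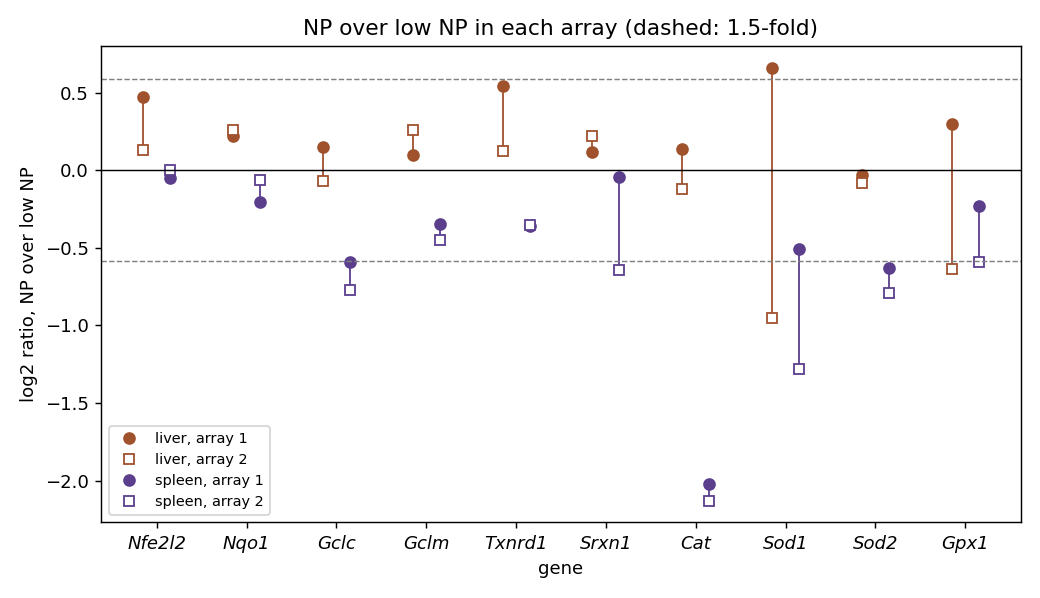
Log2 ratio of NP over low NP for the 10 genes on each array, in liver and spleen. Circles are array 1 and open squares array 2, joined by a line, and dashed lines mark 1.5-fold. Cat in spleen lies at -2.02 and -2.13, and the Sod1 and Gpx1 arrays of liver lie on both sides of 0.

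The second question was the same in spleen. Cat, Sod2 and Gclc were called lower in the NP spleen pool, 3 of 10 genes, against 6.33% of 18567 measured genes. None was called higher, against 0.0431% of all. In 9 of the 10 genes both arrays were below 0, and the median was -0.41, beside -0.02 over all measured genes. By the mean, 0 of the 10 lay above 0, against 45.2% of all measured genes. The share of all genes with both arrays below 0 was not counted. The hepatocyte markers given above, all of them lower in NP than in low-NP spleen, moved the same way as the 9 genes, and their part in the values was not tested.

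Cat had normalized log2 levels of 12.5 and 12.3 in NP spleen and 14.5 and 14.4 in low-NP spleen. Both low-NP values lay above both NP values, and how many of all genes had such levels was not counted. The ratio was -2.02 and -2.13 (-2.07 ± 0.05), so the low-NP pool was 4.21-fold above the NP pool, and 2.73% of measured spleen genes had a lower ratio. The Cat probe lies at chr2:103305290-103305349 (mm7, minus strand). Cat was past 1.5-fold on both arrays under every alternative processing run, and its mean ranged from -2.35 to -1.98.

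Sod2 had levels of 14.36 and 14.09 in NP spleen and 14.99 and 14.88 in low-NP spleen, and its ratio was -0.63 and -0.79 (-0.71 ± 0.08). Gclc had levels of 11.3 on both arrays in NP spleen and 11.9 and 12.1 in low-NP spleen, and its ratio was -0.59 and -0.77 (-0.68 ± 0.09). For both genes the levels of the diets did not overlap, and array 1 passed the threshold narrowly. The levels come from the same arrays as the ratios, so the lack of overlap is no separate evidence. Its share over all genes was not counted. With median centring in place of loess, array 1 gave -0.54 for Sod2 and -0.58 for Gclc, which ended both calls. Gclc was also not called without background correction (array 1 at -0.58), with the scanner software's processed signals (-0.51) or in the deposited value table (-0.47).

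Sod1 was lower on both spleen arrays, at -0.51 and -1.28 (-0.89 ± 0.39), but array 1 did not reach 1.5-fold, so it was not called. It was called with the processed signals, at -0.69 and -1.29, and in the deposited value table, at -0.66 and -1.13. Its levels were 16.4 and 15.9 in NP spleen and 16.9 and 17.1 in low-NP spleen, without overlap, on the same arrays that gave the ratio. The 2 other Sod1 probes, which are dimmer and carry another accession, gave -0.17 and -0.20. Gpx1 lay at -0.23 and -0.59 (-0.41 ± 0.18), and array 2 alone passed the threshold. As in liver, all 45 genes at least as bright as Gpx1 had a higher ratio on array 1 than on array 2 in spleen, against 53.7% of the dimmer genes. Of these 45, 16 passed 1.5-fold in opposite directions in spleen, against 0.0486% of the dimmer genes.

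The remaining Nrf2 targets were lower by less than 1.5-fold. Gclm lay at -0.35 and -0.45 (-0.40 ± 0.05), and Txnrd1 at -0.36 and -0.35 (-0.35 ± 0.00). For these targets the arrays differed little. Srxn1 lay at -0.04 and -0.64 (-0.34 ± 0.30), so that 1 array carried the difference, and its other probes gave smaller differences, -0.23 and -0.17. Nqo1 lay at -0.20 and -0.06 (-0.13 ± 0.07). Nfe2l2 itself lay at -0.05 and 0.00 (-0.03 ± 0.03), and its other 3 probes ran from -0.26, on the dimmest, to -0.05. The gene for the transcription factor thus had the smallest spleen difference of the 10, while the other 9 lay below 0 on both arrays. Of the genes with a response element core in the window searched, Nfe2l2, Gclm, Txnrd1 and Sod1, none was called. Sod1 was called, however, with the processed signals and in the deposited value table. Cat and Sod2, both called, had no core there, and Gclc, also called, had no promoter entry. Sequence outside the window was not searched, and a link between core and ratio was not tested.

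**Figure D3:**
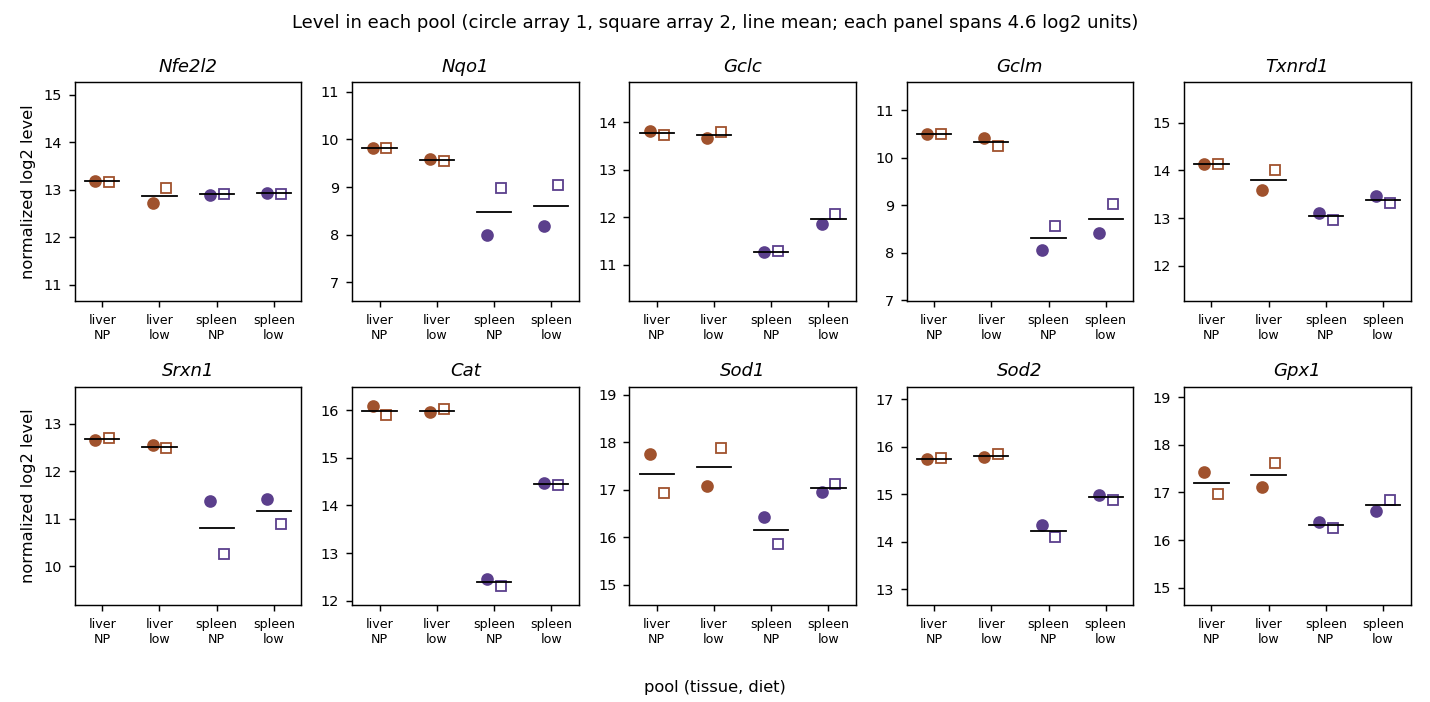
Normalized log2 level of each gene in the 4 pools, with circles for array 1, open squares for array 2 and lines for means. Each panel spans the same range of log2 units. Cat lies between 15.9 and 16.1 in liver, at 14.5 and 14.4 in low-NP spleen and at 12.5 and 12.3 in NP spleen, while Nfe2l2 stays between 12.7 and 13.2.

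The levels also showed how the genes are distributed between the tissues. A pool was compared between tissues within the same dye, after loess and quantile normalization of average intensities across arrays. In the NP pools 9 of the 10 genes were at least 1.5-fold higher in liver in both dyes, against 20.6% of 18730 genes called higher and 22.3% called lower. Cat had the largest difference of the 10, 3.61 ± 0.02 on the log2 scale, or 12.2-fold. Glutamate-cysteine ligase followed, with Gclc at 2.49 ± 0.06 and Gclm at 2.19 ± 0.26. Srxn1 was at 1.87 ± 0.58, Sod2 at 1.52 ± 0.14 and Nqo1 at 1.34 ± 0.50. Sod1 was at 1.19 ± 0.11, Txnrd1 at 1.10 ± 0.08 and Gpx1 at 0.88 ± 0.15. Nfe2l2 was the exception at 0.27 ± 0.04 and was not called. Only Cat at the top and Nfe2l2 at the bottom lay apart from all the others on both arrays. Srxn1 overlapped Gclc, Gclm, Sod2 and Sod1, Gclc overlapped Gclm, Sod1 overlapped Txnrd1, and Nqo1 overlapped Srxn1, Sod2, Sod1, Txnrd1 and Gpx1. Txnrd1 and Gpx1 overlapped as well, so the order between these is not settled.

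In the low-NP pools 5 of the 10 were called higher in liver, against 14.5% of 19169 genes called higher and 17.8% lower, and the difference was smaller than in the NP pools for all 10. The median over the 10 was 1.43 in the NP pools and 0.91 in the low-NP pools. Over all genes the shares called were also smaller in the low-NP pools. They were 14.5% against 20.6% in the NP pools for higher in liver, and 17.8% against 22.3% for lower. How many of all genes had a smaller difference was not counted, so whether the change is particular to these 10 was not tested. Cat went from 3.61 to 1.53 ± 0.05, or 2.89-fold. Gclc (1.77 ± 0.04), Gclm (1.61 ± 0.39), Srxn1 (1.36 ± 0.23) and Sod2 (0.87 ± 0.08) were the others called. Nqo1 (0.96 ± 0.45), Gpx1 (0.64 ± 0.13), Sod1 (0.45 ± 0.31), Txnrd1 (0.42 ± 0.29) and Nfe2l2 (-0.05 ± 0.16) were not. With levels from the processed signals the Nfe2l2 difference turned to 0.70. Both tissue differences use the same pools as the diet ratios, so they are no independent measure of them. The hepatocyte markers stood at 42.7% of their NP liver level in low-NP spleen, and their part in the smaller differences was not tested. Spleen array 1 was brighter than the others, with 93.1% and 94.7% of probes well above background against 58.6% to 67.5%, and Nqo1, the dimmest of the 10, differed between the arrays in NP spleen, at 7.98 and 8.97.

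**Figure D4:**
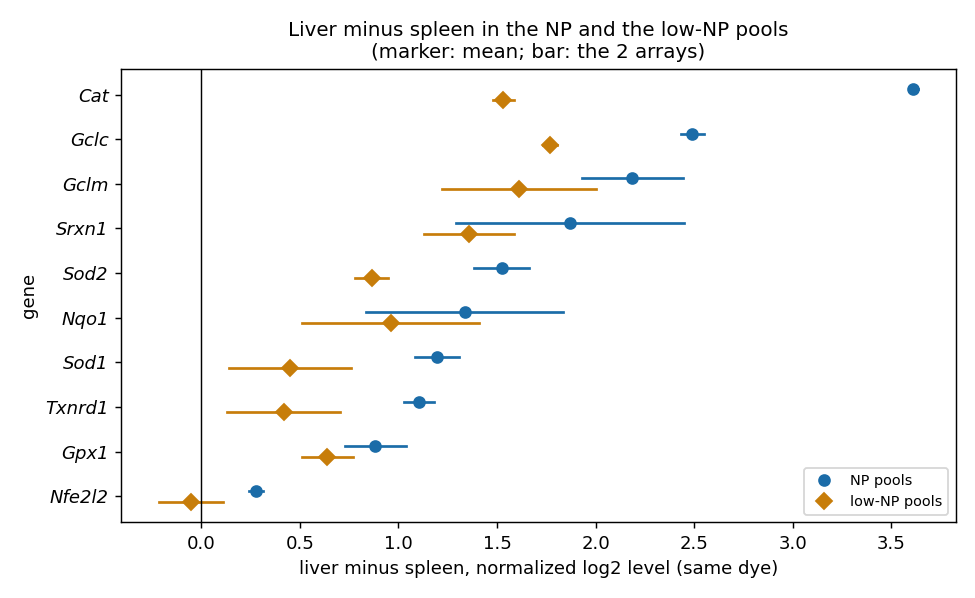
Liver minus spleen normalized log2 level of each gene in the NP pools (circles) and the low-NP pools (diamonds), with bars joining the 2 arrays. All 10 differences are smaller in the low-NP pools, and that of Cat goes from 3.61 to 1.53. Over all genes, the shares called between the tissues are smaller in the low-NP pools too.

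A wider list of 70 genes around the pathway was described with the same call. In liver 2 of 70 measured genes were called lower, 2.86% against 3.63% of all measured genes, and none higher, with a median of 0.00 (-0.002478 before rounding). The share lower was thus near that of all genes and is no result about the list. Both were higher in spleen than in liver, by 17.0-fold for Hmox1 and 13.6-fold for Mgst2 in the NP pools. Hmox1, the heme oxygenase that macrophages use to break down heme and a known Nrf2 target, had levels of 11.5 and 11.3 in NP liver and 13.0 and 12.9 in low-NP liver, at -1.57 ± 0.09. In the spleen it stood between 15.4 and 15.5 in all pools and arrays, at 0.05 ± 0.01. Mgst2, a microsomal glutathione S-transferase, was at -1.60 ± 0.70 in liver and 12.3 and 12.2 in NP spleen. Hmox1 and Mgst2 were lower in NP liver as lymphocyte (16 of 20) and macrophage and granulocyte genes (6 of 14) were, and the part of such cells was not tested. Keap1, which retains Nrf2, was at -0.04 ± 0.12 in liver and -0.06 ± 0.08 in spleen, and the KEAP1 group of 9 genes had 0 called in either tissue.

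In spleen 21 of 69 measured pathway genes were called lower and none higher, 30.4% against 6.33% of all measured genes, with a median of -0.24 (-0.02 over all). The hepatocyte markers were lower in the same comparison, 19 of 19 with a median of -6.17, and their part in these calls was not tested. Of 20 glutathione S-transferases and other conjugating or reducing enzymes, 13 were lower, with a median of -1.04. Gsta3 (-4.92 ± 0.22), Mgst1 (-3.07 ± 0.11), Gstm1 (-3.01 ± 0.10), Gstm3 (-2.68 ± 0.21) and Gstp1 (-2.59 ± 0.24) were the lowest by the smaller of their 2 arrays. These enzymes join glutathione to electrophiles, and probes of such close families may bind more than 1 member. In the NP pools these 5 genes were between 2.62 and 5.25 log2 units higher in liver than in spleen. Of 13 thioredoxin and peroxiredoxin genes 4 were lower, among them Prdx1 (-0.68 ± 0.04), a cytosolic peroxiredoxin, and Prdx6 (-0.95 ± 0.01). Txn1, the cytosolic thioredoxin, was at -0.36 ± 0.22 and was not called. Of 5 measured genes of NADPH supply 2 were lower, with Me1, the cytosolic malic enzyme, at -2.66 ± 0.44. Abcc2, a canalicular exporter of glutathione conjugates, was at -3.27 ± 0.47, with its NP channel well above background on 1 of 2 arrays. Osgin1, a growth inhibitor that oxidative stress induces, was at -1.98 and -2.02 on the arrays.

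Other groups held no call in spleen. The 7 genes that make, reduce or supply glutathione ran from -0.49 to -0.01, with glutathione reductase, Gsr, at -0.03 ± 0.09. The other 5 glutathione peroxidases ran from -0.14 to 0.19, and the 5 heme and iron genes from -0.28 to 0.05. The extracellular dismutase gene Sod3 was at 0.04 ± 0.09.

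**Figure D5:**
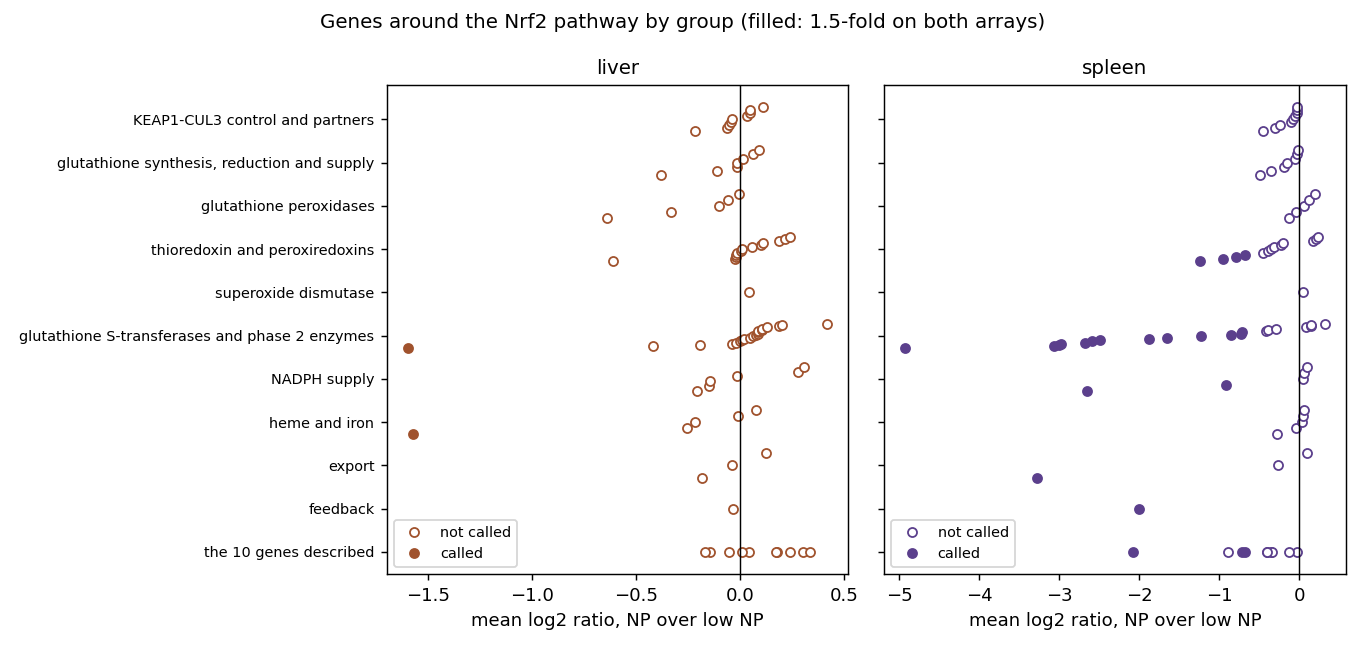
Mean log2 ratio of NP over low NP for 70 genes around the pathway, by group, in liver (left) and spleen (right), with the 10 genes described in the lowest row. Filled points passed 1.5-fold on both arrays. In spleen 21 of 69 are filled and lie below 0, and in liver 2 of 70.

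For the 3 called genes, the genes with the most similar levels were found over 8 values, the 4 pools on 2 arrays each, among 10623 recognised genes above background in all. The measure was the root mean square distance of levels centred on each gene's mean. Nearest to Cat were Ddt (0.080), Sult1a1 (0.096) and Pgrmc1 (0.12). Nearest to Gclc were Mmd (0.071), Acot1 (0.081) and D5Wsu178e (0.085), and nearest to Sod2 were Derl2 (0.063), Brp44l (0.069) and Esd (0.080).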

How the data were processed

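The deposited scanner files give intensity per spot and dye, as mean foreground and median local background, with a processed intensity and a log10 ratio (Cy5 to Cy3) from the software, per the file headers. They come from Agilent Feature Extraction 9.5.3.1, per the submitters' processing notes. The deposited value table holds log10 ratios, and how the authors normalized or centred them is not stated. Against the scanner ratios its columns correlated at -0.992, 0.991, -0.993 and 0.998, so every column has low NP as numerator. Its column medians ran from -0.07 to 0.03.

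Each of the 4 arrays, on 1 slide, held 45018 spots, 1639 of them controls, and 41174 probes. With limma 3.58.1 under R 4.3.3, mean signals were corrected by normexp (offset 50) and normalized by loess, with controls and between 109 and 180 outlier spots per array left out. Ratios were oriented with NP as numerator. Levels per channel came from loess and Aquantile. Tables used Python 3.11.15, pandas 2.3.3 and numpy 2.4.6, and figures matplotlib 3.10.9. The call was tried on simulated dye swaps in which dye effect and noise did not depend on intensity. The simulation therefore does not cover probes as bright as those of Sod1 and Gpx1. The small number of arrays limits precision.

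Named genes are the 10 members, up to 8 called pathway genes per tissue and direction by the smaller array ratio, 5 fixed pathway genes, the 3 nearest genes of each called member, and others given as examples of a group (Gpx and Sod family genes, Prdx6 and Mgst2 included). The members, lists and rules were chosen with earlier results of these data known. List symbols were matched by the name in the files, then by accession or synonym in mouse RefSeq of assembly GRCm38.p6.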

Additional observations from a re-analysis of the deposited data

Results flagged for a closer look

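In 4 of the 10 genes both liver arrays lay above 0 and both spleen arrays below 0. How many of all measured genes had this pattern was not counted. Over all measured genes 50.2% of liver means and 45.2% of spleen means lay above 0. For the 4 genes the liver ratio minus the spleen ratio was 0.69 for Txnrd1, 0.58 for Gclm, 0.51 for Srxn1 and 0.37 for Nqo1, on the log2 scale. None of these genes was called in either tissue, and the difference between the tissues was not tested. Hepatocyte markers were lower in NP spleen (19 of 19 called) and not called in liver, and their part in these differences was not tested.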

How the results depend on the processing

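Over 6 alternatives that keep both arrays, the spleen mean stayed below 0 in 9 of the 10 genes, all but Nfe2l2, and the liver mean kept its sign in 5. Genes called lower in spleen among the 10 went from 3 to 1 with median centring and to 1 at 2-fold, and ranged from 3 to 6 on single arrays. Single liver arrays gave 0 to 1 of the 10 higher and 0 to 2 lower. Called pathway genes in liver, 2 lower, became 4 without background correction, 5 with processed signals and 1 at 2-fold, and 3 to 11 lower or 0 to 4 higher on single arrays. In spleen 2-fold left 13 of 21, and single arrays gave 22 to 23. Over all genes in liver, 12 higher became 119 with processed signals, 6 at 2-fold and 76 to 345 on single arrays. The 621 lower became 1333 without background correction, 1809 with processed signals, 324 with median centring, 296 at 2-fold and 702 to 1924 on single arrays. In spleen, 8 higher became 30 with processed signals, 3 with median centring, 1 at 2-fold and 50 to 130 on single arrays, and 1175 lower became 775 at 2-fold and 1248 to 1680 on single arrays. A stricter fold and a single array move counts by construction, and the cause of the other shifts was not tested. Under median centring the spleen median over all genes was -0.15, against -0.02. Scaling processed signals to their 75th percentile gave 10 of the 10 genes higher in liver in the low-NP pools, against 5, and single arrays 6 to 8. It moved the median liver minus spleen difference of all genes from -0.05 to -0.33. No paired analysis was possible because both arrays of a tissue were taken to carry the same pool of each diet, which the labels do not settle, and no test was run.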
